A study of Mus musculus with 12 samples.

Results

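The genes described here are the matrix metalloproteases, their tissue inhibitors and the ADAMTS and ADAMTS-like genes of cultured mouse hippocampal cells. They were taken by name, as all loci called Mmp or Adamts followed by a number, Timp1 to Timp4, or Adamtsl followed by a digit, with a mean deposited count of at least 10 over the 12 libraries. Of the 19336 named loci, 46 carried such a name and 38 reached the mean count: 12 Mmp, 4 Timp, 17 Adamts and 5 Adamtsl genes. All 38 also passed the filter on low counts and were among the 15656 genes tested. Of the 8 genes below the limit (Mmp3, Mmp8, Mmp10, Mmp13, Mmp25, Mmp27, Adamts13 and Adamts19), Mmp13 came nearest to it with a mean of 5.07 counts, and Mmp9 lay just inside it with 11.9.

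The RNA came from hippocampal cultures of WT mouse pups at P4, grown for 8 d before treatment. The DAPT cultures received 20 µM of DAPT, a small-molecule inhibitor of γ-secretase, the protease that cuts Nrg1, Notch and many other proteins within the membrane, and were compared with Vehicle cultures. The DAPT+sErbB4 cultures received 20 µM DAPT and then 20 nM sErbB4, the soluble ectodomain of the Nrg1 receptor ErbB4, for 4 h, and were compared with sErbB4 cultures, which received 20 nM sErbB4 for 4 h. The design thus asks how γ-secretase inhibition changes expression without and with stimulation of Nrg1 back signaling. There were 3 libraries per condition. The paper describes 3 platings per condition, from several mice of 3 litters, so that p-values measure the spread between platings. How the litters were divided over the platings is not stated in the paper. All groups share the WT genotype, and the agents were given to whole cultures, which hold glia as well as neurons.

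Matrix metalloproteases (MMPs) are zinc proteases that cut collagens, proteoglycans, cell adhesion proteins and growth factor precursors outside the cell. Some are secreted and others, the membrane-type MMPs, are anchored at the cell surface. ADAMTS proteases are related secreted enzymes, many of which cut the hyaluronan-binding proteoglycans that make up much of the brain matrix, including perineuronal nets. The tissue inhibitors of metalloproteases (TIMPs) block the active site of these enzymes, so that matrix turnover depends on the balance between proteases and inhibitors. ADAMTS-like proteins resemble ADAMTS enzymes without the protease domain.

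Promoter sequences are shown for 4 genes whose level differed between DAPT and control cultures, from the membrane-type MMPs, the TIMPs and the ADAMTS group. They give the 120 bases upstream of the RefSeq start site, read 5′ to 3′ on the strand of the gene in GRCm38.p6. The Adamts1 window lies on the minus strand at chr16:85803114-85803233, that of Timp4 on the minus strand at chr6:115252206-115252325, that of Mmp15 on the plus strand at chr8:95352176-95352295 and that of Adamts12 on the plus strand at chr15:11064653-11064772. Capitals mark the letters TATAAA.
Adamts1: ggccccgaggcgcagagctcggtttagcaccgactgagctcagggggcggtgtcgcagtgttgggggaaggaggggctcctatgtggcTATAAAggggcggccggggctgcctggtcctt
Timp4: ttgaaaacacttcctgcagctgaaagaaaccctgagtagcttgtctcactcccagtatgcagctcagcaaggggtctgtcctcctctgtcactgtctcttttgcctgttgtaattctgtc
Mmp15: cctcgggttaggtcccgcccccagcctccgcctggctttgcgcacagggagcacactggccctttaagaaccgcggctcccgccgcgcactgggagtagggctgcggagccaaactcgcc
Adamts12: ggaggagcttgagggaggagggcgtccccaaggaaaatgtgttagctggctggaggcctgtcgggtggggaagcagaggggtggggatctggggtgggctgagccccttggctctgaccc

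The 4 windows differ in base composition, with 67.5% G and C in Adamts1, 70% in Mmp15 and 65.8% in Adamts12, but 48.3% in Timp4. The letters TATAAA on the strand of the gene, searched between 40 and 20 bases upstream of the start, begin 32 bases upstream of Adamts1 and were found at this distance in 1.87% of the 32851 RefSeq promoters. Among the 24 of the 38 genes that had a RefSeq promoter to search, Adamtsl2, which was not called, also had them, 30 bases upstream. RefSeq promoters (250 bases upstream to 50 downstream) were matched for 24 of the 38 genes, and they were searched on both strands for 2 motifs. The heptamer GTGGGAA, bound by RBPJ, the DNA-binding partner of the Notch intracellular domain, was present in 2 of the 24 genes (Adamtsl2 and Mmp23). Of all genes with a RefSeq promoter 7.25% had it, and of all promoters 6.38%. In Mmp23 it lay downstream of the start with the window chr4:155653241-155653540, and the window of its other start (chr4:155653335-155653634) had no match. The AP-1 site TGAGTCA was present in Mmp12 alone of the 24 genes, against 5.95% of all genes with a promoter and 5.2% of all promoters. RefSeq gives 2 starts for Mmp12, and the motif was in the window of the second (chr9:7347124-7347423), which lies inside the annotated gene (from chr9:7344381), while the window at the first start (chr9:7344147-7344446) had no match. Of the 24 genes with a promoter, 11 were called in the mean DAPT effect described further on, and neither motif was in any of these 11 windows. Among them, the Adamts20 window (chr15:94404301-94404600, minus strand) lies inside the annotated gene (chr15:94270163-94465418), away from its annotated start. A match or its absence describes these letters in these windows only.

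The genes Mmp3, Mmp10 and Mmp13 of the MMP cluster on mouse chromosome 9, all below the count limit here, hold the AP-1 letters 46, 63 and 35 bases upstream of their RefSeq starts. Mmp8 and Mmp27 of the same cluster, also below the limit, had no match in their windows. Of all 31 genes with such a name and a RefSeq promoter, kept or not, 4 had the motif, against 5.95% of all genes with a promoter. The stretches below show the motif in capitals with 15 bases on each side, all from the plus strand of GRCm38.p6, at chr9:7445761-7445797 for Mmp3, chr9:7502264-7502300 for Mmp10 and chr9:7272464-7272500 for Mmp13. In Mmp13 the motif lies on the opposite strand and reads TGACTCA.
Mmp3: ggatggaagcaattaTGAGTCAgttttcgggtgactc
Mmp10: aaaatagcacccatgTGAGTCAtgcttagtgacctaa
Mmp13: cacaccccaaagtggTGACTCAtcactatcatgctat

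Levels are given as CPM, counts per 1000000 counts of named loci after TMM normalization between libraries. The Rn45s locus, a ribosomal RNA precursor, held 31.4 to 44.6% of the counts on named loci, so every CPM value would be higher without it. Between 18.7 and 30.8 (in units of 1000000) counts per library fell on named loci, and log2 values of libraries of a condition correlated at r of 0.988 to 0.994. The first principal component, with 36.5% of the variance, placed all 6 libraries with DAPT apart from the 6 without. The sErbB4 replicate 1 library stood apart on the second component, at -23.8 against 8.86 and 10.1 for the other two sErbB4 libraries, as did Vehicle replicate 3, at -10.4 against 3.57 and 6.99. Across 12534 genes the deposited counts were not higher for longer transcripts (Spearman rho = -0.174), so they appear to be corrected for length and CPM values of different genes are set side by side on that footing.

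The proteases and inhibitors spanned a wide range of levels in these cultures. Timp2 was the most abundant, with a mean of 199 CPM over the 12 libraries, followed by Timp3 at 91.5, Mmp14 at 75.6, Timp4 at 70.8, Mmp15 at 59.1, Adamts1 at 39.9 and Mmp24 at 34.2 CPM. The gelatinase Mmp2 and the membrane-type Mmp17 followed at 22.7 and 22.1 CPM, a difference within their spread between libraries. Mmp9, the other gelatinase, was the lowest of the 38 at 0.481 CPM. The 12 genes at or above 10 CPM were 3 Timp genes, all 5 membrane-type MMPs, Mmp2, Mmp19, Adamts1 and Adamts9. The spread between libraries of a condition was smallest for Adamts1 (mean coefficient of variation 2.26%), 3.03% for Timp3 and largest for Mmp9 (30.1%), the gene with the fewest counts.

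**Figure D1:**
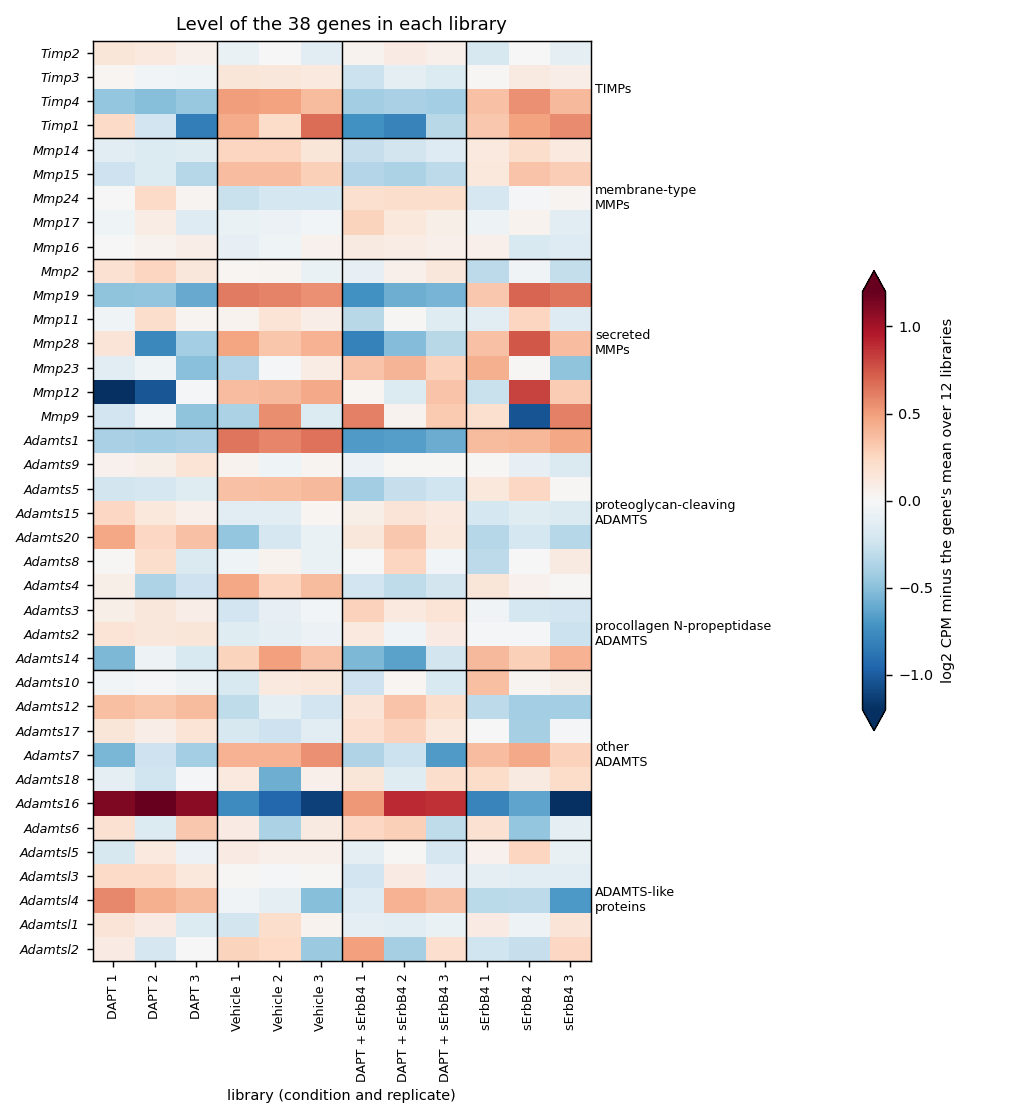
Level of each of the 38 genes (rows, grouped by role and ordered by mean level) in each of the 12 libraries (columns), as log2 CPM minus the mean of the gene over the 12 libraries. Timp4, Mmp15, Mmp19, Adamts1, Adamts5 and Adamts7 are low in all 6 libraries with DAPT, while Adamts12, Adamts16 and Adamts20 are high in them.

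Expression of these genes differed between DAPT and control cultures in both directions, and it did so much alike without and with sErbB4. Calls required a Benjamini-Hochberg p below 0.05 in edgeR's quasi-likelihood test, adjusted over all genes tested, together with a log2 fold change beyond 0.322 in either direction, the fold limit of the study. In DAPT minus Vehicle, 14 of the 38 genes (36.8%) were called, against 11.6% of all genes tested, with 5 higher in DAPT (4.66% of all genes) and 9 lower (6.92%). In DAPT+sErbB4 minus sErbB4, 16 were called (42.1%), against 11.7% of all genes, with 6 higher (4.55%) and 10 lower (7.15%). These 2 comparisons share no library. Of the 38 genes, 12 were called in both, 8 lower and 4 higher, and 34 had the same sign in both, against 78.2% of all genes. Across the 38 genes the log2 fold changes of the 2 comparisons correlated at Pearson r = 0.924 and Spearman rho = 0.869, and at r = 0.899 without Adamts16, against r = 0.262 across all genes. This describes genes in 1 experiment, and genes are not independent replicates. The median absolute log2 fold change of the 38 was 0.28 in DAPT minus Vehicle and 0.29 in DAPT+sErbB4 minus sErbB4, against 0.16 in each over all genes, while their median signed change was near 0 (-0.03 and 0.06).

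Averaged over both comparisons, 16 genes were called, 5 higher and 11 lower, against 13.2% of all genes (5.54% higher and 7.7% lower). In DAPT minus sErbB4, 13 were called, 5 higher and 8 lower, against 10.1% of all genes (4.05% higher and 6.04% lower). The libraries of DAPT and Vehicle did not overlap for 25 of the 38 genes, against 41.1% of all genes, and those of DAPT+sErbB4 and sErbB4 for 25, against 38.7%. Without sErbB4 replicate 1 the number of genes called in DAPT+sErbB4 minus sErbB4 stayed at 16, and without Vehicle replicate 3 the number called in DAPT minus Vehicle was 11. In bulk RNA, fewer cells of a type and less RNA per cell cannot be told apart in any of these values.

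**Figure D2:**
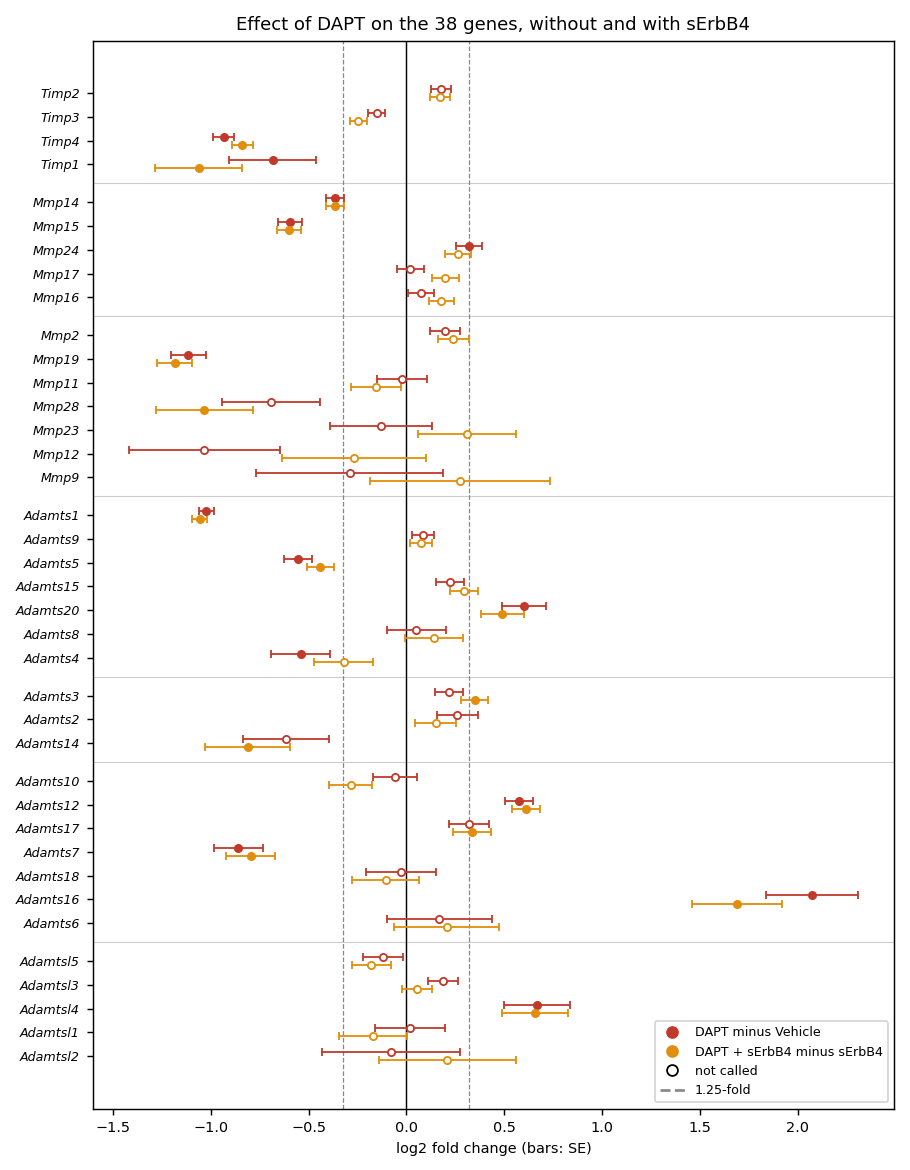
Log2 fold change (x axis, bars SE from the edgeR quasi-likelihood fit) of each of the 38 genes in DAPT minus Vehicle (red) and DAPT+sErbB4 minus sErbB4 (orange), with filled points for genes called and dashed lines at the fold limit of 0.322. The points of the 2 comparisons lie near each other for most genes, with Adamts16 farthest to the right (2.07 and 1.69) and Mmp19 farthest to the left (-1.11 and -1.18).

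Among the inhibitors, Timp4 fell with DAPT while Timp2, the most abundant, was slightly higher. Timp4, an inhibitor with a restricted tissue distribution that includes brain and heart, had 48.8, 47.3 and 49.3 CPM in DAPT, against 95.9, 94.2 and 87.9 CPM in Vehicle. With sErbB4 it had 50.4, 51.4 and 51.0 CPM in DAPT+sErbB4, against 86.1, 98.9 and 88.4 CPM in sErbB4. The groups lay far apart in both comparisons, with all 6 DAPT libraries within 47.3 to 51.4 CPM. The log2 fold change was -0.93 ± 0.05 (SE, edgeR quasi-likelihood adjusted p = 5.1e-07) in DAPT minus Vehicle and -0.84 ± 0.05 (adjusted p = 1.1e-06) in DAPT+sErbB4 minus sErbB4, that is 1.91-fold and 1.79-fold lower.

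Timp2, which inhibits MMPs and also bridges Mmp14 to the inactive form of Mmp2 during its activation, had 219.5, 214 and 207 CPM in DAPT, against 188, 199 and 181 CPM in Vehicle. It had 204, 212 and 207 CPM in DAPT+sErbB4, against 174, 197 and 182 CPM in sErbB4. All DAPT libraries were above their controls, but the difference was under the fold limit and Timp2 was not called, with log2 fold changes of 0.18 ± 0.05 and 0.17 ± 0.05 (edgeR adjusted p = 0.027 and 0.028). Timp3, the inhibitor that binds to the matrix and also blocks several ADAM and ADAMTS enzymes, had 92.8, 89.1 and 87.9 CPM in DAPT, against 101, 100.2 and 98.8 CPM in Vehicle. With sErbB4 its values were 76.5, 84.1 and 81.4 CPM in DAPT+sErbB4, against 91.9, 98.4 and 96.5 CPM in sErbB4. The groups did not overlap, and the log2 fold changes of -0.15 ± 0.04 and -0.25 ± 0.04 (adjusted p = 0.026 and 0.0017) were again under the fold limit, so that Timp3 was not called.

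Timp1, the inducible inhibitor of the family, was the least abundant and the most variable of the 4. It had 6.00, 4.38 and 2.87 CPM in DAPT, against 6.97, 5.96 and 8.15 CPM in Vehicle, and the highest DAPT library lay above the lowest Vehicle library. With sErbB4 the groups did not overlap, at 3.09, 2.93 and 4.05 CPM in DAPT+sErbB4, against 6.40, 7.15 and 7.57 CPM in sErbB4. Timp1 was called in both, at -0.68 ± 0.22 (edgeR adjusted p = 0.044) and -1.06 ± 0.22 (adjusted p = 0.0050). The call in DAPT minus Vehicle was lost when any single library was left out other than Vehicle replicate 2, sErbB4 replicate 1 or DAPT replicate 1 (adjusted p = 0.0505 to 0.143, the highest without Vehicle replicate 3), and without DAPT replicate 3 the log2 fold change was -0.42. It was also lost with the replicate number as a block (adjusted p = 0.070), with unnamed loci kept and with only the groups compared. The call in DAPT+sErbB4 minus sErbB4 was kept in each of these.

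The 4 inhibitors together had 356 ± 10.2 CPM in DAPT, against 389 ± 12.0 CPM in Vehicle, and 343 ± 8.32 CPM in DAPT+sErbB4, against 378 ± 22.1 CPM in sErbB4 (SD, n = 3 each). Their make-up shifted more than their total. Timp2 made up 59.9% ± 0.38 of the TIMP counts in DAPT, against 48.6% ± 1.0 in Vehicle, and 60.6% ± 0.45 in DAPT+sErbB4, against 48.7% ± 0.32 in sErbB4 (SD, n = 3 each). Timp4 made up 13.6% ± 0.53 in DAPT, against 23.9% ± 0.59 in Vehicle, and 14.9% ± 0.22 in DAPT+sErbB4, against 24.1% ± 0.51 in sErbB4. The shares of Timp3 lay between 22.9 and 26.3% in all 12 libraries.

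Timp1, Timp3 and Timp4 lie within the synapsin genes Syn1, Syn3 and Syn2, on the opposite strand (GENCODE M21, GRCm38; chrX:20870166-20874735, chr10:86300372-86349506 and chr6:115241892-115252205). Whether the counting used strand is not given in the sources used here, so that reads of overlapping exons could not be assigned. The synapsins, which encode synaptic vesicle proteins, did not move with their nested genes. Syn1 had log2 fold changes of 0.25 and 0.22, Syn2 of 0.25 and 0.32 and Syn3 of 0.05 and 0.23 in DAPT minus Vehicle and in DAPT+sErbB4 minus sErbB4, all opposite in sign to those of Timp1, Timp4 and Timp3, and none was called.

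**Figure D3:**
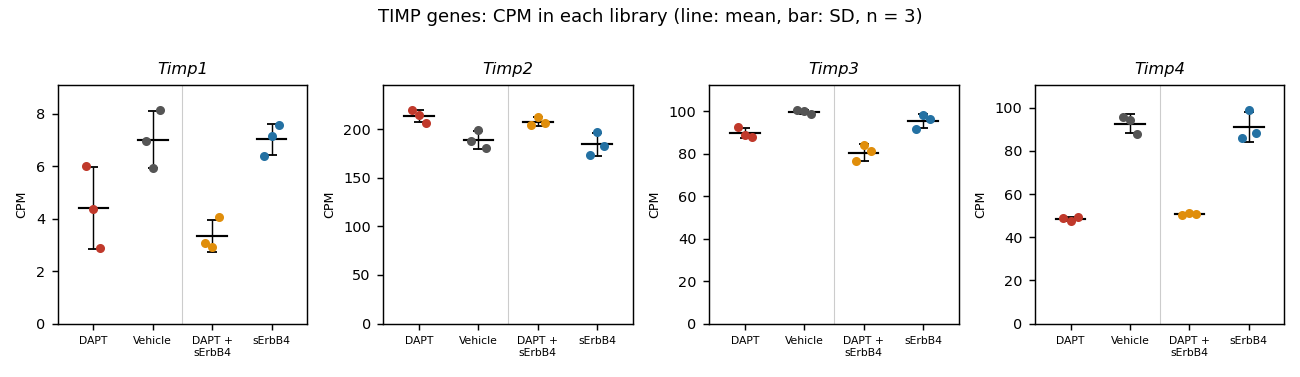
CPM of the 4 Timp genes in each library (points, 3 per condition), with the mean (line) and SD (bar), in DAPT, Vehicle, DAPT+sErbB4 and sErbB4. Timp4 lies between 47.3 and 51.4 CPM in the 6 libraries with DAPT and between 86.1 and 98.9 CPM in the 6 without, while Timp2 is above its control in all DAPT libraries by a smaller ratio.

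Of the 5 membrane-type MMPs kept, Mmp14 and Mmp15 fell with DAPT in both comparisons. Mmp14 (chr14:54431612-54445364) encodes MT1-MMP, a collagenase of the cell surface that activates the Mmp2 proenzyme. It had 68.6, 66.9 and 67.6 CPM in DAPT, against 89.4, 89.5 and 83.1 CPM in Vehicle, and 61.8, 64.2 and 67.2 CPM in DAPT+sErbB4, against 81.2, 86.5 and 81.2 CPM in sErbB4. The groups did not overlap, and the fall was the same in both, with log2 fold changes of -0.37 ± 0.05 each (edgeR adjusted p = 0.00016 and 0.00015). Mmp15 (chr8:95352268-95375080), encoding the related MT2-MMP, had 48.6, 51.5 and 45.7 CPM in DAPT, against 74.9, 74.9 and 70.4 CPM in Vehicle. It had 45.3, 44.6 and 46.6 CPM in DAPT+sErbB4, against 63.0, 73.4 and 70.8 CPM in sErbB4. Its log2 fold changes of -0.60 ± 0.06 in each (adjusted p = 3.9e-05 and 3.1e-05) correspond to a level 1.51-fold and 1.52-fold lower.

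The other three membrane-type MMPs were not lower. Mmp24, encoding MT5-MMP, an enzyme found mainly in the nervous system that cuts N-cadherin, had 34.1, 39.9 and 34.8 CPM in DAPT, against 28.2, 29.3 and 29.4 CPM in Vehicle. It had 38.7, 39.3 and 39.2 CPM in DAPT+sErbB4, against 29.6, 33.3 and 34.6 CPM in sErbB4. All DAPT libraries were above their controls. Mmp24 was called in DAPT minus Vehicle at 0.32 ± 0.07 (edgeR adjusted p = 0.0045), just past the fold limit of 0.322 on the log2 scale, and not in DAPT+sErbB4 minus sErbB4, at 0.26 ± 0.06 (adjusted p = 0.011). The first call ended without DAPT replicate 2 (0.25), Vehicle replicate 1 (0.30) or sErbB4 replicate 3 (0.32), and with the replicate number as a block (0.32), each just under or below the limit.

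Mmp17, whose product MT4-MMP is held at the surface by a lipid anchor, had 21.3, 23.4 and 19.8 CPM in DAPT, against 20.9, 21 and 21.5 CPM in Vehicle. Mmp17 had 26.4, 24.0 and 23.2 CPM in DAPT+sErbB4, against 21.2, 22.7 and 20.0 CPM in sErbB4. Only the second pair of groups did not overlap, and neither difference was called (0.02 ± 0.07 and 0.20 ± 0.07 on the log2 scale, edgeR adjusted p = 0.88 and 0.053). Mmp16, encoding MT3-MMP, stayed within 10.6 to 13.0 CPM over all 12 libraries and was not called (0.07 ± 0.07 and 0.18 ± 0.07). The summed level of the 5 membrane-type MMPs was 186 ± 6.88 CPM in DAPT, against 223 ± 5.05 CPM in Vehicle, and 186 ± 2.07 CPM in DAPT+sErbB4, against 217 ± 9.52 CPM in sErbB4 (SD, n = 3 each).

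Of the 7 secreted MMPs, Mmp19 showed the clearest difference. Mmp19 (chr10:128790910-128800824) encodes a secreted protease that cuts basement membrane proteins and tenascin. It had 9.28, 9.34 and 8.53 CPM in DAPT, against 20.0, 19.7 and 19.0 CPM in Vehicle, and 7.87, 8.65 and 8.82 CPM in DAPT+sErbB4, against 16.3, 21 and 20.3 CPM in sErbB4. All 6 libraries with DAPT were below 10 CPM and all 6 without were above 16. The log2 fold changes were -1.11 ± 0.09 (edgeR adjusted p = 6.1e-06) and -1.18 ± 0.09 (adjusted p = 3.3e-06), that is 2.17-fold and 2.27-fold lower. Mmp19 shares 789 bases with Tmem198b on the opposite strand, which was also called lower (-0.57 and -0.60), and the part of overlapping reads in this was not tested.

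Mmp2, gelatinase A, which degrades denatured collagen and collagen IV of basement membranes, was not lower with DAPT. It had 25.5, 26.9 and 24.9 CPM in DAPT, against 22.9, 23.1 and 21.3 CPM in Vehicle, and 21, 23.6 and 24.7 CPM in DAPT+sErbB4, against 18.2, 22.0 and 18.4 CPM in sErbB4. DAPT lay above Vehicle in all libraries, while the second pair of groups overlapped through sErbB4 replicate 2. Neither difference was called (0.20 ± 0.08 and 0.24 ± 0.08, edgeR adjusted p = 0.096 and 0.044), although the second was called without sErbB4 replicate 2, at 0.34 (adjusted p = 0.0062). Mmp2 was called in DAPT minus sErbB4, at 0.39.

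Mmp28, epilysin, was near 1 CPM with DAPT. It had 1.44, 0.760 and 0.980 CPM in DAPT, against 1.80, 1.63 and 1.73 CPM in Vehicle, and 0.739, 0.905 and 1.03 CPM in DAPT+sErbB4, against 1.65, 2.17 and 1.68 CPM in sErbB4. The groups did not overlap in either comparison, but it was called only in the second (-1.03 ± 0.25, edgeR adjusted p = 0.010, against -0.69 ± 0.25, adjusted p = 0.066, in DAPT minus Vehicle). Without DAPT replicate 1, which had the highest DAPT value, Mmp28 was called in DAPT minus Vehicle too, at -0.96 (adjusted p = 0.020). The difference between the 2 comparisons was not called for any of the 38 genes, as described further on.

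Mmp9, Mmp11, Mmp12 and Mmp23 were not called in any comparison. Mmp12, the macrophage elastase, had log2 fold changes of -1.03 ± 0.39 (edgeR adjusted p = 0.076) and -0.27 ± 0.37 (adjusted p = 0.67) at 0.782 CPM on average, and its groups overlapped with sErbB4 present. Gelatinase B, Mmp9, an enzyme linked to synaptic plasticity, lay between 0.223 and 0.696 CPM in the 12 libraries. Its deposited counts, which are estimates and not read numbers, were 6.81 to 16.8 each. At its mean coefficient of variation of 30.1%, only large differences could have been detected. The secreted MMPs together had 42.9 ± 1.68 CPM in DAPT, against 51.5 ± 1.41 CPM in Vehicle, and 39.7 ± 2.89 CPM in DAPT+sErbB4, against 48.1 ± 5.26 CPM in sErbB4 (SD, n = 3 each).

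**Figure D4:**
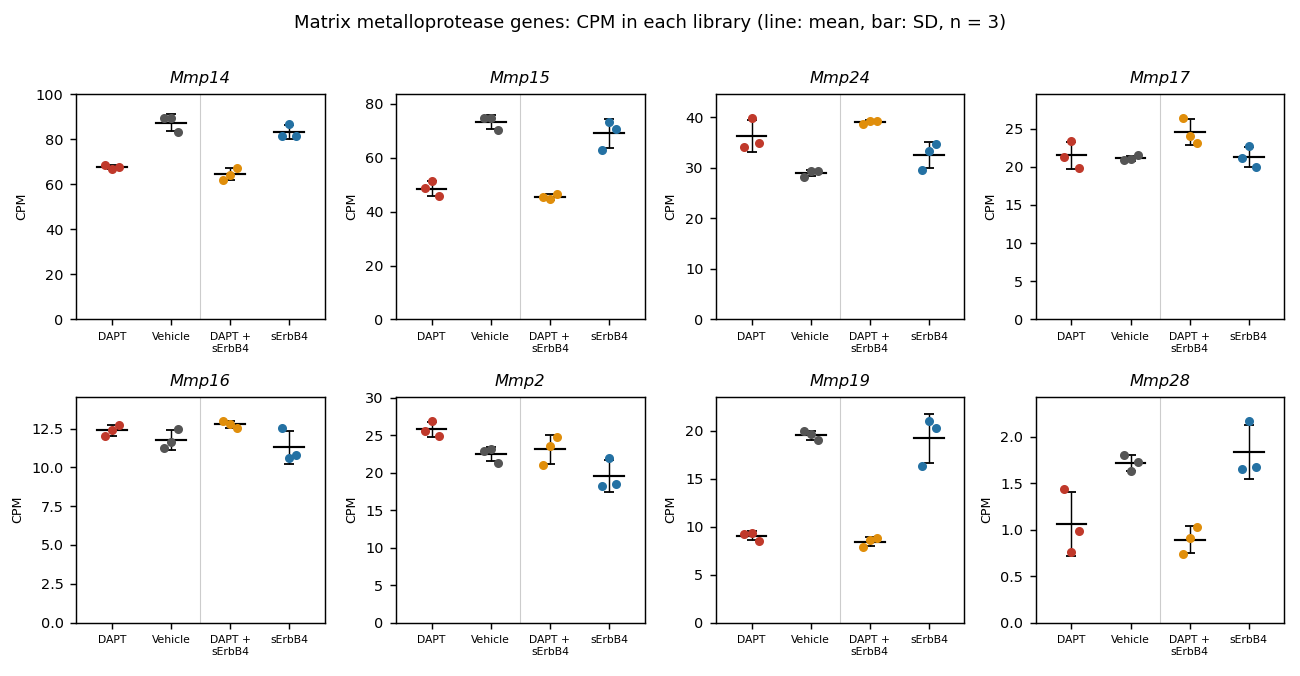
CPM of 8 Mmp genes in each library (points, 3 per condition), with the mean (line) and SD (bar), in DAPT, Vehicle, DAPT+sErbB4 and sErbB4. Mmp14, Mmp15 and Mmp19 are lower in both DAPT groups with no overlap, while Mmp24 and Mmp2 are not lower and Mmp16 and Mmp17 differ little from their controls.

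Among the ADAMTS enzymes that cut aggrecan, versican, brevican and neurocan, Adamts1 was the most abundant and showed the difference with the lowest p of all 38 genes. It had 28.5, 28.1 and 28.5 CPM in DAPT, against 58.2, 56.1 and 58.7 CPM in Vehicle. With sErbB4 it had 23.4, 23.5 and 24.6 CPM in DAPT+sErbB4, against 48.5, 49.0 and 51.3 CPM in sErbB4. The libraries of each condition were close together and no 2 of the 4 conditions overlapped. The level was 2.03-fold lower in DAPT than in Vehicle (log2 fold change -1.02 ± 0.04, edgeR adjusted p = 1.2e-08) and 2.08-fold lower in DAPT+sErbB4 than in sErbB4 (-1.06 ± 0.04, adjusted p = 9.2e-09).

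Adamts5 lies next to Adamts1 on the minus strand of chromosome 16 (chr16:85856173-85901828, with Adamts1 at chr16:85793827-85803113) and encodes aggrecanase-2, the main aggrecanase of mouse cartilage. It had 6.75, 6.84 and 7.12 CPM in DAPT, against 10.1, 10.1 and 10.3 CPM in Vehicle, and 5.91, 6.52 and 6.69 CPM in DAPT+sErbB4, against 8.57, 9.38 and 7.98 CPM in sErbB4. The groups did not overlap, and Adamts5 was called lower in both (-0.56 ± 0.07 and -0.44 ± 0.07, edgeR adjusted p = 0.00017 and 0.00081). Adamts4, aggrecanase-1, was low, at 1.87, 1.39 and 1.5 CPM in DAPT, against 2.47, 2.14 and 2.32 CPM in Vehicle, and 1.52, 1.45 and 1.53 CPM in DAPT+sErbB4, against 1.97, 1.85 and 1.80 CPM in sErbB4. It was called in DAPT minus Vehicle (-0.54 ± 0.15, adjusted p = 0.023) and not in DAPT+sErbB4 minus sErbB4 (-0.32 ± 0.15, adjusted p = 0.18). The call was lost without Vehicle replicate 1, Vehicle replicate 3, DAPT replicate 2 or DAPT replicate 3 (adjusted p = 0.089, 0.053, 0.077 and 0.083).

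Adamts20, known from mouse for its part in the spread of pigment cell precursors, was the only member of this group called higher. It had 5.34, 4.60 and 4.96 CPM in DAPT, against 2.82, 3.37 and 3.69 CPM in Vehicle, and 4.26, 4.85 and 4.23 CPM in DAPT+sErbB4, against 3.06, 3.35 and 3.07 CPM in sErbB4. No library with DAPT overlapped its controls, and the log2 fold changes were 0.60 ± 0.11 and 0.49 ± 0.11 (edgeR adjusted p = 0.0027 and 0.0077). Adamts9, which cuts versican and aggrecan, was the second most abundant of the group and stayed within 11.6 to 14.7 CPM in all libraries (0.09 ± 0.06 and 0.07 ± 0.06, not called). Adamts15 had 6.98, 6.39 and 6.11 CPM in DAPT, against 5.36, 5.34 and 5.96 CPM in Vehicle, and 6.18, 6.55 and 6.37 CPM in DAPT+sErbB4, against 5.07, 5.30 and 5.19 CPM in sErbB4. Its libraries with DAPT also lay above their controls, but the log2 fold changes of 0.22 ± 0.07 and 0.29 ± 0.07 were under the limit of 0.322 (edgeR adjusted p = 0.090 and 0.013), so it was not called. Adamts8 was not called. The 7 genes thus moved in both directions, yet their summed level was 64.9 ± 0.812 CPM in DAPT, against 94.6 ± 2.20 CPM in Vehicle, and 58.1 ± 1.67 CPM in DAPT+sErbB4, against 83.2 ± 0.695 CPM in sErbB4 (SD, n = 3 each), a sum led by Adamts1.

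The 3 enzymes that remove the N-propeptide of fibrillar procollagens had no call in DAPT minus Vehicle. Adamts3, which also processes VEGF-C and cuts reelin, had 10.2, 10.6 and 10.2 CPM in DAPT, against 8.22, 9.05 and 9.42 CPM in Vehicle, and 11.7, 10.5 and 10.8 CPM in DAPT+sErbB4, against 9.38, 8.33 and 8.26 CPM in sErbB4. All DAPT libraries were above their controls. Adamts3 was called only with sErbB4 (0.35 ± 0.07, edgeR adjusted p = 0.0035, against 0.22 ± 0.07, adjusted p = 0.046, without), and that call ended without sErbB4 replicate 2 (0.320), sErbB4 replicate 3 (0.319) or DAPT+sErbB4 replicate 1 (0.303), each just under the fold limit. Adamts14 went the other way at a low level, with 0.741, 1.03 and 0.947 CPM in DAPT, against 1.29, 1.52 and 1.37 CPM in Vehicle, and 0.739, 0.688 and 0.925 CPM in DAPT+sErbB4, against 1.41, 1.31 and 1.43 CPM in sErbB4. Its groups did not overlap. It was called only with sErbB4 (-0.81 ± 0.22, adjusted p = 0.019, against -0.62 ± 0.22, adjusted p = 0.065, without), and not when sErbB4 replicate 3, DAPT+sErbB4 replicate 1 or DAPT+sErbB4 replicate 2 was left out (adjusted p = 0.053, 0.064 and 0.076). Adamts2 was not called.

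Of the other 7 ADAMTS genes, Adamts16 showed the largest fold difference of all 38 genes. It had 2.57, 2.86 and 2.52 CPM in DAPT, against 0.705, 0.618 and 0.546 CPM in Vehicle, and 1.70, 2.21 and 2.17 CPM in DAPT+sErbB4, against 0.684, 0.766 and 0.409 CPM in sErbB4. Every library with DAPT was above every library without it. The log2 fold changes were 2.07 ± 0.24 (edgeR adjusted p = 7.7e-05) and 1.69 ± 0.23 (adjusted p = 0.00029), that is 4.21-fold and 3.23-fold higher. The gene had 9.66 to 76.6 deposited counts per library, and limma on log2(CPM + 2) gave 0.81 and 0.60, since the added 2 CPM exceeds the level of the gene in the controls.

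Adamts7 and Adamts12, related enzymes that both cut cartilage oligomeric matrix protein, moved in opposite directions. Adamts7 had 2.11, 2.59 and 2.32 CPM in DAPT, against 4.11, 4.10 and 4.51 CPM in Vehicle, and 2.39, 2.57 and 1.92 CPM in DAPT+sErbB4, against 3.99, 4.21 and 3.72 CPM in sErbB4. It was lower with no overlap, at -0.86 ± 0.13 and -0.80 ± 0.13 (edgeR adjusted p = 0.00051 and 0.00078). Adamts12 had 7.95, 7.78 and 8.07 CPM in DAPT, against 5.01, 5.73 and 5.28 CPM in Vehicle, and 6.87, 7.82 and 7.15 CPM in DAPT+sErbB4, against 4.99, 4.66 and 4.66 CPM in sErbB4. It was higher with no overlap, at 0.58 ± 0.07 and 0.61 ± 0.07 (adjusted p = 0.00018 and 1.0e-04).

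Adamts17, whose loss causes an eye and skeletal disorder in humans, had 6.12, 5.86 and 6.21 CPM in DAPT, against 4.85, 4.66 and 5.05 CPM in Vehicle, and 6.35, 6.70 and 6.05 CPM in DAPT+sErbB4, against 5.55, 4.21 and 5.44 CPM in sErbB4. The groups did not overlap, and the log2 fold changes of 0.32 ± 0.10 and 0.33 ± 0.10 (edgeR adjusted p = 0.041 and 0.028) lay on either side of the fold limit, so that only the second was called. That call was lost without sErbB4 replicate 2, where the log2 fold change was 0.21 (adjusted p = 0.16), and without any of the 3 DAPT+sErbB4 libraries (adjusted p = 0.065, 0.099 and 0.0503), and without DAPT+sErbB4 replicate 3 the first was called instead (0.33, adjusted p = 0.049). Adamts6, Adamts10 and Adamts18 were not called.

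Of the 5 ADAMTS-like genes, which encode matrix proteins without protease activity, Adamtsl4 was called in both comparisons. It encodes a fibrillin-binding protein needed for the suspension of the lens in humans. It had 6.00, 5.41 and 5.23 CPM in DAPT, against 3.91, 3.71 and 2.82 CPM in Vehicle, and 3.61, 5.36 and 5.12 CPM in DAPT+sErbB4, against 3.22, 3.22 and 2.5 CPM in sErbB4. The groups did not overlap, with DAPT+sErbB4 replicate 1 closest to the controls, and the log2 fold changes were 0.67 ± 0.17 and 0.66 ± 0.17 (edgeR adjusted p = 0.013 and 0.014). The first call was lost without Vehicle replicate 3 (adjusted p = 0.052), and the second without sErbB4 replicate 3, DAPT+sErbB4 replicate 2 or DAPT+sErbB4 replicate 3 (adjusted p = 0.052, 0.062 and 0.058). Adamtsl1, Adamtsl2, Adamtsl3 and Adamtsl5 were not called.

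**Figure D5:**
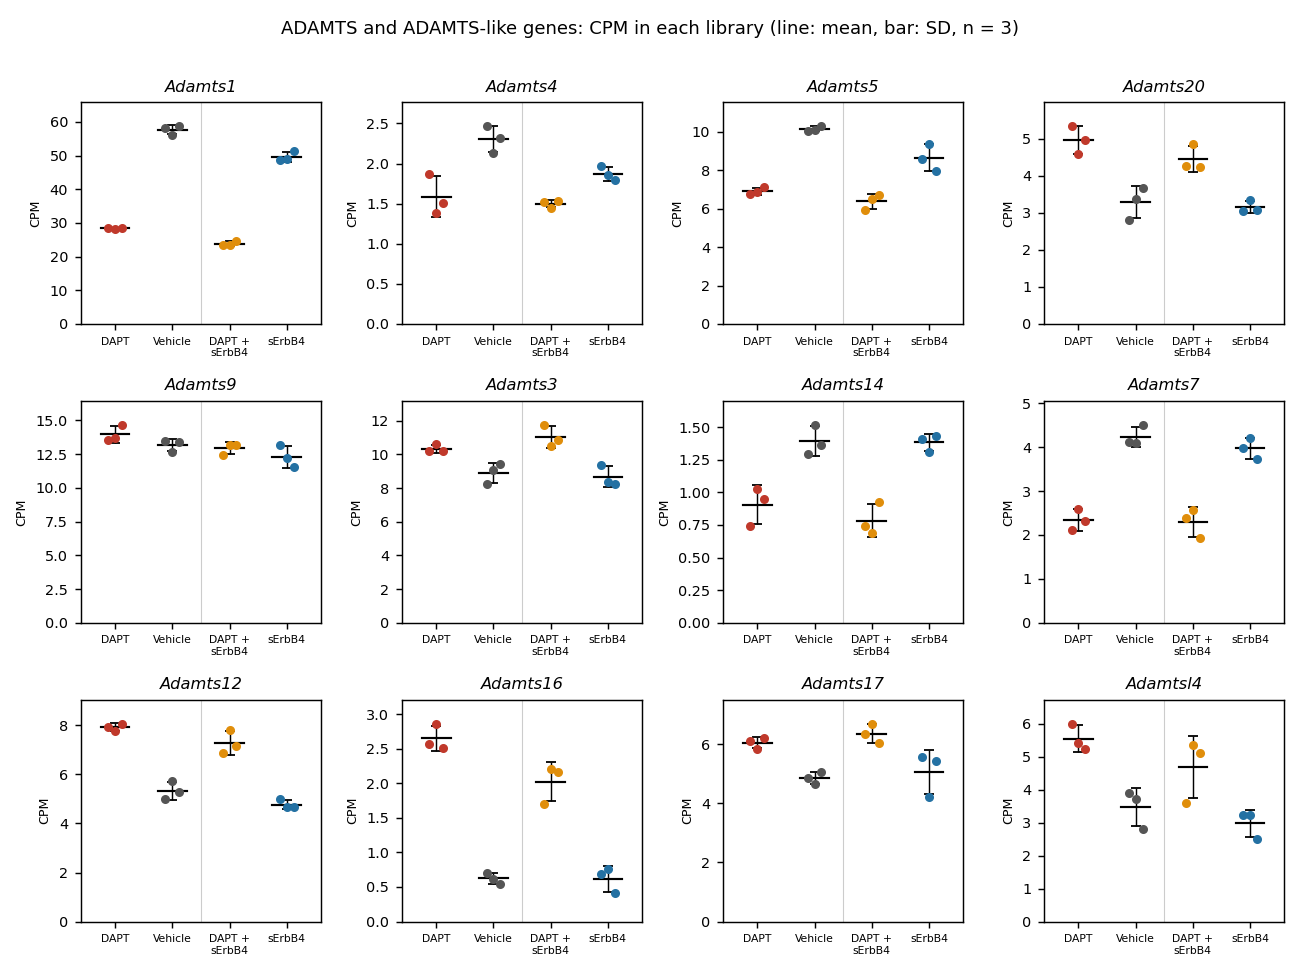
CPM of 11 Adamts genes and Adamtsl4 in each library (points, 3 per condition), with the mean (line) and SD (bar), in DAPT, Vehicle, DAPT+sErbB4 and sErbB4. Adamts1, Adamts5 and Adamts7 are lower in both DAPT groups, while Adamts12, Adamts16, Adamts20 and Adamtsl4 are higher, and Adamts9 stays within 11.6 to 14.7 CPM.

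The effect of sErbB4 itself on these genes was small. In sErbB4 minus Vehicle, edgeR called 0 of the 38 genes, against 0.0319% of all genes, and in DAPT+sErbB4 minus DAPT it called 0, against 0% of all genes. At an unadjusted p under 0.05 the counts were 4 and 5 genes, against 1184 and 1442 of all 15656 genes, and DESeq2 and limma also called 0 in both. The lowest p in each belonged to Adamts1. It was lower in sErbB4 than in Vehicle by a log2 fold change of -0.22 ± 0.04 (edgeR adjusted p = 0.10), and lower in DAPT+sErbB4 than in DAPT by -0.25 ± 0.04 (adjusted p = 0.11), and the libraries did not overlap in either pair. With DESeq2 the adjusted p was 0.0080 and 0.0048 at log2 fold changes of -0.22 and -0.26, so there only the fold limit of 0.322 withheld the call, and over the other alternatives it was 0.10 to 0.65 and 0.073 to 0.52. In each of these comparisons 26 of the 38 log2 fold changes were negative, and the median was -0.04 in sErbB4 minus Vehicle and -0.08 in DAPT+sErbB4 minus DAPT, against -0.0020 and 0.0020 over all genes.

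Whether the DAPT effect differed with sErbB4 was tested as the interaction of both treatments. None of the 38 genes was called, against 0.00639% of all genes, 0 had an unadjusted p under 0.05 with edgeR, and DESeq2 and limma called 0 as well, with 0 and 1 genes at an unadjusted p under 0.05. Thus the genes called in only 1 of the 2 DAPT comparisons (Mmp24 and Adamts4 without sErbB4, and Mmp28, Adamts3, Adamts14 and Adamts17 with it) are not shown to differ between them. The SE of the interaction was 0.10 on the log2 scale for Mmp17, the gene with the lowest p (0.18 ± 0.10), and 0.53 for Mmp12, so that moderate differences in the low genes could not be detected with 3 libraries per condition.

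Lists of genes that act with these proteases are read against the 11.6% and 11.7% of all genes called in DAPT minus Vehicle and in DAPT+sErbB4 minus sErbB4. One list held hyaluronan-binding proteoglycans, link proteins and tenascins, a matrix that ADAMTS enzymes and MMPs cut. Of its 8 tested genes, 4 were lower and 0 higher in each DAPT comparison. These were the proteoglycans Bcan (brevican, -0.51 and -0.52 on the log2 scale in DAPT minus Vehicle and in DAPT+sErbB4 minus sErbB4) and Ncan (neurocan, -0.52 and -0.62), the link protein Hapln1 (-0.75 and -0.93) and the glycoprotein Tnc (tenascin-C, -0.58 and -0.67). The other four were not called in either, and 3 of them had positive fold changes in both: Acan (aggrecan, 0.09 and 0.14), Vcan (versican, 0.06 and 0.09) and Tnr (tenascin-R, 0.21 and 0.25). Tnr averaged 97.7 CPM in DAPT, against 84.3 CPM in Vehicle, and 89.9 CPM in DAPT+sErbB4, against 75.3 CPM in sErbB4, with no overlap in either pair, and was called higher in DAPT minus sErbB4 (0.37). The median log2 fold change of the list was -0.47 and -0.30, against 0.01 and 0.01 over all genes. Bcan averaged 522 ± 33 CPM in DAPT, against 742 ± 13 CPM in Vehicle, and 488 ± 7.9 CPM in DAPT+sErbB4, against 700 ± 17 CPM in sErbB4 (SD, n = 3 each). Of the 7 ADAMTS genes whose enzymes cut such proteoglycans, Adamts1 and Adamts5 were called lower in the same 2 comparisons and Adamts20 higher (0.60 and 0.49). In each comparison 4 of the 7 had positive fold changes and 3 had negative ones.

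In 4 other lists few genes were called in DAPT minus Vehicle, near the share over all genes: 2 of 13 activators, inducers and receptors, 1 of 8 genes of the plasminogen activator system, 1 of 10 ADAM proteases and 2 of 12 genes of fibrillin microfibrils. Among activators, inducers and receptors of these proteins, the proprotein convertase Pcsk6 was higher (0.46 and 0.40) and the elastic fibre protein Efemp2 was lower (-0.78 and -0.70). Of 8 tested genes of the plasminogen activator system, which activates several MMPs, the urokinase gene Plau was lower in both (-0.61 and -0.49). Among 10 tested ADAM proteases, Adam12 was lower by the largest amount (-1.41 and -1.44) and Adam22, which encodes a catalytically inactive synaptic receptor, was higher with sErbB4 (0.35). Of 12 genes of fibrillin microfibrils, to which several ADAMTS and ADAMTS-like proteins bind, Ltbp1 (-0.69 and -0.54) and Mfap4 (-0.68 and -0.78) were lower in both and Papln (-0.87) with sErbB4. Of 11 tested single substrates, the fibrillar collagens Col1a1 (-0.69 and -0.84), Col1a2 (-0.35 and -0.42) and Col3a1 (-0.42 and -0.52) were lower in both, and Bdnf was higher with sErbB4 (0.38).

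Some markers of the cell types in the dish also differed with DAPT. Of 7 radial glia and neural stem cell markers, 3 (Fabp7, Nes and Hes5) were lower in both comparisons, with a summed level of 2397 to 2526 CPM in DAPT, against 4286 to 4716 CPM in Vehicle, and 2221 to 2308 CPM in DAPT+sErbB4, against 4011 to 4435 CPM in sErbB4. Most of that difference was Fabp7, which averaged 749 CPM in DAPT, against 2860 CPM in Vehicle, and 748 CPM in DAPT+sErbB4, against 2707 CPM in sErbB4. The other 4 markers (Vim, Sox2, Pax6 and Hopx) had positive fold changes in both and were not called, Vim (1255 CPM in DAPT, against 1156 CPM in Vehicle) and Sox2 (86.2 against 75.8 CPM) lay above Vehicle with no overlap, and the list's median log2 fold change was 0.00 and 0.04. Of 6 oligodendrocyte precursor markers, 4 (Pdgfra, Cspg4, Olig1 and Olig2) were lower in both. The 6 together summed to 557 to 595 CPM in DAPT, against 1073 to 1084 CPM in Vehicle, and 521 to 548 CPM in DAPT+sErbB4, against 999 to 1079 CPM in sErbB4. Most of that difference was Olig1, which averaged 282 CPM in DAPT, against 707 CPM in Vehicle, and 270 CPM in DAPT+sErbB4, against 693 CPM in sErbB4. Gpr17 alone had positive fold changes in both. It lay above Vehicle with no overlap (144 against 124 CPM on average) and was called higher in DAPT minus sErbB4 (0.40). Of 5 tested pericyte and smooth muscle markers, 2 were lower in both (21.2 to 24.7 CPM in DAPT, against 31.4 to 35.8 CPM in Vehicle, and 19.1 to 20.4 CPM in DAPT+sErbB4, against 25.9 to 31.4 CPM in sErbB4), and the defining markers Kcnj8, Abcc9 and Myh11 were too low to be tested. Of 8 fibroblast markers, 5 were lower and 2 (Dcn and Lum) higher in both, summing to 172 to 182 CPM in DAPT, against 215 to 222 CPM in Vehicle, and 154 to 163 CPM in DAPT+sErbB4, against 200 to 210 CPM in sErbB4. The 5 lower genes were Fn1, Pdgfra, Col1a1, Col1a2 and Col3a1. Pdgfra is also on the precursor list, and the collagens are those given above as substrates, so these lists are not separate evidence.

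The labels call the samples neuronal cultures, and all 11 neuron markers were detected and tested. Of these, 5 were called higher in DAPT minus Vehicle and 3 in DAPT+sErbB4 minus sErbB4, and none was called lower. Fold changes were positive for 10 and 9 of the 11. Tubb3 went the other way with no overlap in either pair. It averaged 340 CPM in DAPT, against 372 CPM in Vehicle, and 367 CPM in DAPT+sErbB4, against 403 CPM in sErbB4. The 11 markers summed to 1693 to 1781 CPM in DAPT, against 1440 to 1547 CPM in Vehicle, and 1859 to 1961 CPM in DAPT+sErbB4, against 1582 to 1709 CPM in sErbB4. The 9 astrocyte markers had a larger sum, at 6917 to 7335 CPM in DAPT, against 6238 to 7004 CPM in Vehicle, and 6552 to 6823 CPM in DAPT+sErbB4, against 5950 to 6226 CPM in sErbB4. Most of it was Gfap, which averaged 4972 CPM in DAPT, against 4229 CPM in Vehicle, and 4638 CPM in DAPT+sErbB4, against 3790 CPM in sErbB4. In both comparisons 2 of the 9 (Gjb6 and Gja1) were called higher and 3 (Aldh1l1, Slc1a3 and Aldoc) lower. Fold changes were positive for 4 and negative for 5 in each, with a median of -0.11 and -0.02 on the log2 scale. Of 9 microglia markers, 1 was lower without and 2 with sErbB4, and their sums overlapped (103 to 105 CPM in DAPT, against 103 to 121 CPM in Vehicle, and 97 to 112 CPM in DAPT+sErbB4, against 101 to 111 CPM in sErbB4). Of 6 oligodendrocyte markers, 1 was lower in DAPT minus Vehicle and 0 in the other comparison, with sums of 285 to 289 CPM in DAPT, against 257 to 315 CPM in Vehicle, and 266 to 283 CPM in DAPT+sErbB4, against 213 to 267 CPM in sErbB4. Of 5 tested endothelial markers none was called (5.72 to 6.39 CPM in DAPT, against 6.05 to 6.57 CPM in Vehicle, and 5.12 to 6.74 CPM in DAPT+sErbB4, against 5.19 to 6.84 CPM in sErbB4), and Tek and Flt1 were too low to be tested. The part of these cell types in the lower Timp4, Mmp14, Mmp15, Mmp19 and Adamts1 levels, and in the other differences, was not tested.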

How the data were processed

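RNA was extracted with a micro column kit and made into NEBNext libraries from 12 cultures, 3 per condition. Per the labels and the methods, the authors used Trimmomatic for trimming, HISAT2 for alignment to mm10 and StringTie for transcript assembly. Tool versions and the strand setting are not given in the sources used here. Estimated counts, 1 value per gene and library, were deposited. In each library, 100% of the values from 0 to 5 (0 excluded) lie on a grid with 1 fixed step and 0% are whole numbers, as when counts are rebuilt from abundances corrected for length.

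The 1976 of 21312 loci without a gene name, holding 43.4 to 51.9% of the counts, were left out. Counts were rounded to whole numbers, filtered with filterByExpr by condition, scaled by TMM (factors 0.926 to 1.18) and fitted in edgeR 4.0.16 (R 4.3.3) with a mean per condition (8 residual degrees of freedom), by the quasi-likelihood test with Benjamini-Hochberg adjustment over 15656 genes. Called genes had an edgeR adjusted p below 0.05 and changed by more than 1.25-fold (0.322 on the log2 scale). The SE is the log2 fold change divided by the root of F. The script was tested on simulated data.

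Described in full are the genes called in at least 1 of 7 comparisons, the Timp genes and those at 10 CPM or more (24 genes), with the other 14 given by level or range. The genes, lists and tests were chosen with earlier results of these data known, apart from the search for TATAAA, added after the promoters had been read. Alternatives were RLE scaling, DESeq2 1.42.0, limma 3.58.1 on log2(CPM + 2), no filter, unnamed loci kept, Rn45s left out, only the groups compared, a replicate block and leaving out each library. Coordinates are from GENCODE M21 and RefSeq (GRCm38, the same assembly as mm10).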

Additional observations from a re-analysis of the deposited data

How the results depend on the processing

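The number of the 38 genes called stayed within 1.5 times its value under every alternative run. It was 11 to 15 in DAPT minus Vehicle, 12 to 16 in DAPT+sErbB4 minus sErbB4, 13 to 17 in the mean DAPT effect and 11 to 14 in DAPT minus sErbB4, and 0 in DAPT+sErbB4 minus DAPT, sErbB4 minus Vehicle and the interaction. When each library was left out in turn, the ranges were 11 to 15, 13 to 16, 15 to 17, 11 to 14 and 0. limma gave 11, 12, 13 and 12, and DESeq2 13, 14, 16 and 12 for the first 4 comparisons. Of 47 called results for single genes, 34 were kept under all alternatives, and of 28 uncalled ones 3 were gained. The sign turned in 1, Mmp17 in DAPT minus Vehicle, at -0.041 without DAPT replicate 2, within a range of -0.041 to 0.094 over the libraries left out. limma on log2(CPM + 2), a scale that shrinks the fold changes of low genes, ended calls of Adamts3, Adamts4, Adamts14, Adamts17, Adamts20, Mmp14 and Mmp24, and DESeq2 those of Adamts4, Adamts14 and Adamts17, each in 1 of the 2 DAPT comparisons.

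No source says that a replicate number links libraries of different conditions. The deviations of same-numbered libraries correlated at r of -0.624 to 0.556 (median 0.0276, 8 of 18 pairs over 0.1), and 5 of 12 libraries were closest to their own number. With the replicate number as a block, 12, 16, 16 and 11 genes were called in the first 4 comparisons and 0 in the other three. The block ended the calls of Mmp24 and Timp1 in DAPT minus Vehicle. Fitting only the groups compared ended those of Timp1 and Adamts4 in DAPT minus Vehicle and of Adamts17 in DAPT+sErbB4 minus sErbB4. With 3 libraries per condition, differences in genes under about 1 CPM could be detected only where they were large.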
